A study of Mus musculus with 15 samples.

Results

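TGF-beta signalling was followed through 10 of the 55416 genes in the count table, in mechanically stretched mouse podocytes. They were taken by gene symbol from a named set, with no threshold on a measured value. The set itself was chosen with earlier results of these data known. It held the ligands Tgfb1, Tgfb2, Tgfb3 and Inhba, the latency protein Ltbp1 and the receptors Tgfbr1, Tgfbr2 and Tgfbr3. The other 2 genes, Smad7 and Tgfbi, are read as products of an active pathway. The cells were SVI, 1 conditionally immortalised mouse podocyte line that was differentiated and grown on flexible silicone membranes, and no other genotype or agent is given for any group. The study asked how gene expression and splicing change when podocytes are strained as they may be in glomerular hypertension. Experiment 1 held 6 samples stretched at low amplitude (label 5 to 6 mm of membrane deflection, 6 mm in the design text) and 3 unstretched samples. Experiment 2 held 3 samples stretched at high amplitude (label 7 to 8 mm, 8 mm in the design text) and 3 unstretched samples. Amplitude and experiment therefore cannot be told apart, and the unstretched samples of the same experiment served as the control of either amplitude. The duration and frequency of the stretch are not given in the sources used here. No label says that samples of a group came from separate cultures, so the p-values measure the spread between these samples, which may be technical.

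TGF-beta is secreted in a latent form. Its propeptide stays wrapped around the growth factor, and a latent TGF-beta binding protein such as Ltbp1 tethers this complex to the extracellular matrix, from which integrins can free it by pulling. The free ligand is captured by Tgfbr2, which recruits and activates Tgfbr1, and the receptor pair phosphorylates Smad2 and Smad3, which enter the nucleus with Smad4 and bind promoters. In the kidney the pathway is known for matrix deposition and for podocyte loss in glomerular scarring.

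Ltbp1 and Inhba had the largest log2 fold changes of the members under both amplitudes, so the DNA before their transcription starts is shown here, as RefSeq gives it on GRCm38.p6, an older build than the mm39 named in the submitters' processing notes. Each run holds the 250 bases before an annotated start, 5′ to 3′ on the gene's strand. Capitals mark CAGAC or its reverse complement GTCTG, the short element that Smad3 and Smad4 bind. Ltbp1 has an upstream start, which gives the long form of the protein, and a downstream start, which gives a shorter form.
Ltbp1 upstream start, chr17:75005279-75005528, plus strand: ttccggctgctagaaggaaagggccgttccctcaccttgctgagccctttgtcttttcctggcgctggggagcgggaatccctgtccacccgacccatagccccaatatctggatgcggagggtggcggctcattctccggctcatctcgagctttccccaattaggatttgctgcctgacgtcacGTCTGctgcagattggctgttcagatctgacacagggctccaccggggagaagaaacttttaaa
Ltbp1 downstream start, chr17:75178531-75178780, plus strand: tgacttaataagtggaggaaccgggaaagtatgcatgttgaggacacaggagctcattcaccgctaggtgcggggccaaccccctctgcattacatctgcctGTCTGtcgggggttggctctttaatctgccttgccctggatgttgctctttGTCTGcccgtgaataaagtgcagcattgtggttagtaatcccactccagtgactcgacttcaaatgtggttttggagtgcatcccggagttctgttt
Inhba start, chr13:16011601-16011850, plus strand: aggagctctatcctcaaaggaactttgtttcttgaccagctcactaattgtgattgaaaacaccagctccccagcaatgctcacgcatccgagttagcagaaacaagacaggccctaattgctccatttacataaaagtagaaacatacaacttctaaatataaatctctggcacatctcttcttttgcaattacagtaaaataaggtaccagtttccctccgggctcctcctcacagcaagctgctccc
The upstream Ltbp1 window held 1 match, the downstream window 2 and the Inhba window 0. Windows were used for 7 of the 10 members, 9 windows in all because Ltbp1 and Tgfbr1 each had 2. None was used for Tgfb3, Tgfbr3 and Smad7. Member windows on 1 chromosome were left out, while the windows over all genes kept that chromosome. CAGAC on either strand was in 6 of these 9 and in 42.2% of the 32851 windows of the same length over all genes. The AP-1 site TGACTCA, searched on both strands, was in 0 of the 9 and in 4.46% of all windows. A match is a description of these letters and shows no binding.

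The libraries were deep, with 172211836 to 396658285 counts per sample. Of the 12 podocyte markers looked at, Synpo, Kirrel and Podxl were abundant, with 256 to 837, 305 to 449 and 95.7 to 202 CPM (counts scaled to library size with edgeR's TMM factors) over the 15 samples. Other defining podocyte genes were nearly absent: the slit diaphragm gene Nphs1 lay between 0.204 and 1.01 CPM, and Ptpro and Tcf21 were at or near 0. Wt1, a podocyte transcription factor gene, had group means of 5.05 CPM without and 2.28 CPM with stretch in experiment 1 and of 2.81 and 0.545 CPM in experiment 2. The 12 podocyte markers together had 923 to 957 CPM in the unstretched and 857 to 1142 CPM in the stretched samples of experiment 1, and 1166 to 1325 against 1046 to 1355 CPM in experiment 2. Of 8 endothelial markers 7 stayed under 0.1 CPM in the mean of every group, and so did 5 of 8 mesangial and fibroblast markers. The remaining endothelial marker, Ehd3, had group means of 45.8 and 32.9 CPM in experiment 1 and of 74.6 and 49.5 CPM in experiment 2, without and with stretch, and made up nearly all of the endothelial sums (44.8 to 46.9 against 27.0 to 35.5 CPM, and 70.4 to 82.8 against 42.5 to 54.8 CPM). Among markers of other nephron cells, the proximal tubule receptor gene Lrp2 (249 to 1088 CPM) and the genes Pax2 and Pax8 were expressed. Summed tubular and parietal markers were 1268 to 1469 CPM in the unstretched and 783 to 1149 CPM in the stretched samples of experiment 1, and 879 to 1151 against 755 to 869 CPM in experiment 2. Summed mesangial and fibroblast markers were 88.0 to 105 against 56.6 to 77.3 CPM in experiment 1 and 123 to 166 against 102 to 128 CPM in experiment 2. The 8 leukocyte markers together had 23.5 to 26.3 against 6.77 to 13.2 CPM in experiment 1 and 23.9 to 26.3 against 5.95 to 9.93 CPM in experiment 2. Most of that was Csf1r, with group means of 23.6 and 8.31 CPM and of 24.1 and 5.87 CPM, while Ptprc, the defining leukocyte gene, stayed at or under 0.0543 CPM. The part of these shifts in the results was not tested, and in bulk RNA fewer cells of a type and less RNA per cell cannot be told apart.

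Under high stretch, 2 of the 9 members that could be tested rose: the latency gene Ltbp1, 3.09-fold, and the inhibitory Smad gene Smad7, 1.93-fold. Over all 18524 genes tested in that comparison 3.47% were called, and 1.31% were called higher. Calls are at an adjusted p under 0.05 in edgeR's quasi-likelihood test, Benjamini-Hochberg adjusted over all genes tested. Under low stretch 0 of 9 passed, where 5.45% of 21672 genes did. At an unadjusted p under 0.05 the low-stretch count was 6 of 9, beside 23.6% of all genes, and the high-stretch count was 4 of 9, beside 14.6%. DESeq2 called 3 members under low stretch, Tgfb1 and Ltbp1 higher and Tgfbr3 lower, where it called 11.4% of its genes. The median log2 fold change of the tested members was 0.27 under low stretch, beside 0.01 over all genes, and 0.49 under high stretch, beside -0.02.

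**Figure D1:**
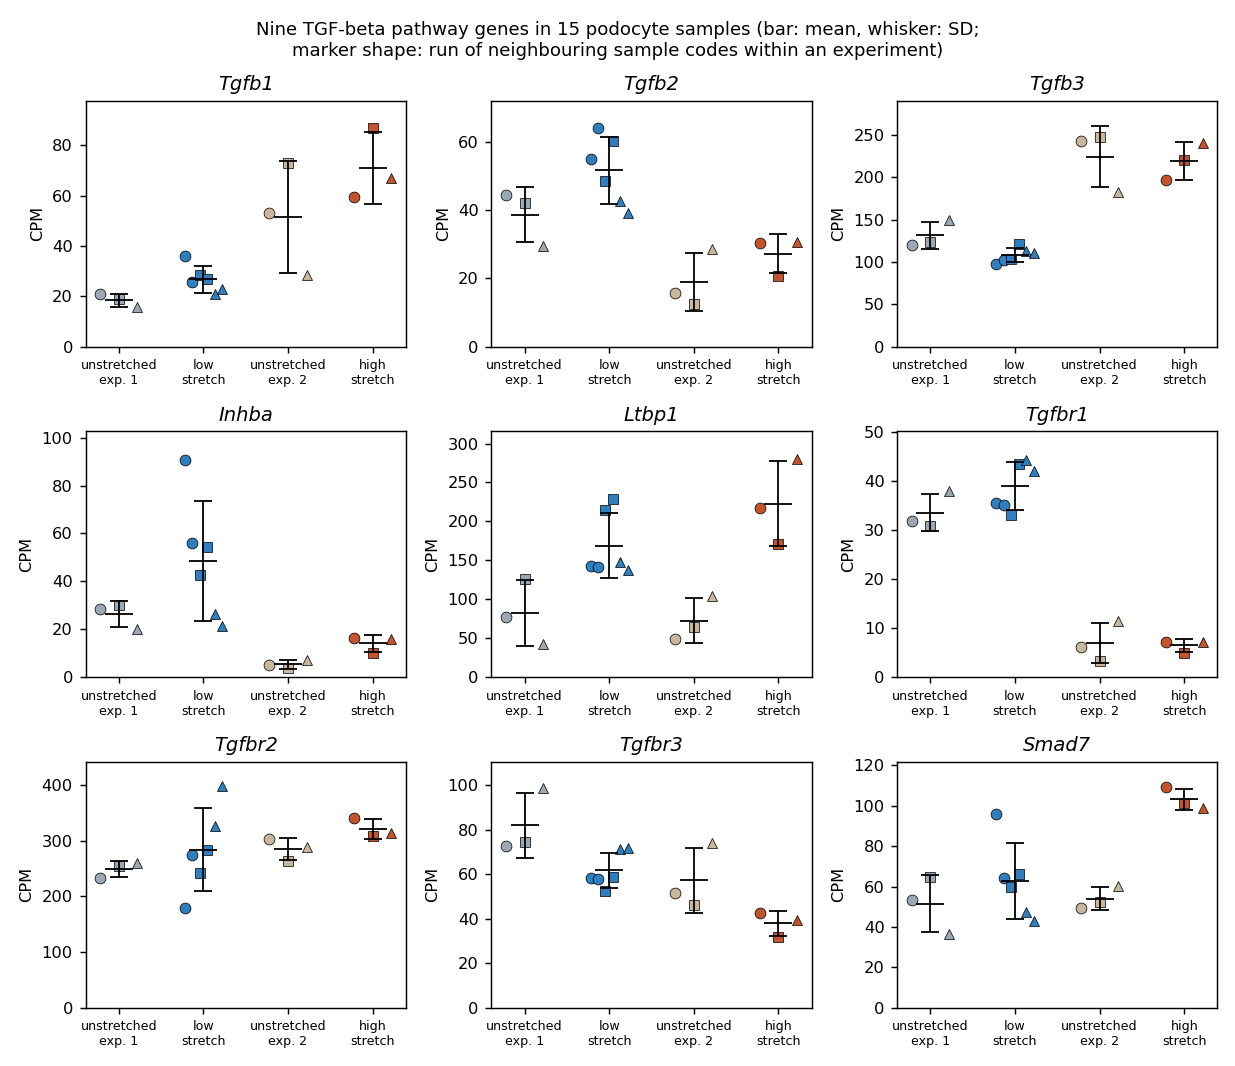
CPM (linear axes from 0) of the 9 tested members in each of the 15 samples, by group, with bars at the mean, whiskers of 1 SD and a marker shape for each run of sample codes. The 3 high-stretch samples lay above the 3 unstretched samples for Ltbp1 (171 to 280 against 49.3 to 104 CPM), Smad7 (99.0 to 109 against 49.3 to 60.5 CPM) and Inhba (9.99 to 16.5 against 3.73 to 7.38 CPM).

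The samples of experiment 1 were also read within runs of neighbouring codes in the sample descriptions, each run with 1 unstretched and 2 stretched samples. The labels do not call these runs a batch. The 2 stretched samples of a run share its unstretched sample, so their ratios are not independent. Where the groups of a gene do not overlap, the direction within runs is fixed in advance and adds nothing. Over genes, deviations from the group means correlated at 0.328 to 0.57 between the unstretched and stretched samples of a run, so the ratios within runs are given beside the pooled values. Between runs the correlations were -0.52 to -0.052. Deviations cancel within a group, so positive correlations within runs force negative ones between runs on average, and the latter add no separate support. In experiment 2 each run held 1 sample of either kind, so that run and replicate number are the same grouping and their blocks the same fit, with correlations of -0.16, 0.45 and 0.24 within the runs.

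Among the ligands, Tgfb1 encodes the isoform most studied in kidney fibrosis. Its level in unstretched samples of experiment 1 was 20.8, 18.9 and 15.6 CPM, and the low-stretch samples ran from 20.8 through a median of 26.2 to 35.9 CPM. Every low-stretch sample lay above every unstretched one, though the nearest pair was equal at 3 digits. No overlap between the groups was found for 15.3% of all genes tested under low stretch. The pooled log2 fold change was 0.53 (SE 0.17) and edgeR's adjusted p was 0.0874. Within runs the low-stretch samples had 1.23 to 1.73 times the unstretched value, in a direction that the lack of overlap fixes. With the run as a block edgeR's adjusted p was 0.00243. That block called 28.2% of all genes and 6 of the 9 members, Tgfb1, Tgfb2, Inhba and Ltbp1 higher and Tgfb3 and Tgfbr3 lower. In experiment 2 Tgfb1 stood at 53.1, 73.0 and 28.5 CPM in unstretched and at 59.4, 87.0 and 66.9 CPM in high-stretch samples. These groups overlapped, with the second unstretched sample above 2 of the stretched ones, and edgeR gave a log2 fold change of 0.49 (SE 0.32) with an adjusted p of 0.615. Without the third unstretched sample the log2 fold change was 0.22, with edgeR's adjusted p at 0.545.

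Tgfb2 encodes a ligand that needs Tgfbr3 for efficient presentation to Tgfbr2. It had 44.3, 42.1 and 29.5 CPM in the unstretched samples of experiment 1 and 39.0 to 64.0 CPM, with a median of 51.8, under low stretch. The groups overlapped, since 2 low-stretch samples were below the highest unstretched one. Pooled, the log2 fold change was 0.41 (SE 0.18) with edgeR's adjusted p at 0.198, while 6 of 6 samples were higher within runs, by 1.16 to 1.45 times (edgeR's adjusted p with the run block 0.00259). In experiment 2 the unstretched values were 15.7, 12.6 and 28.5 CPM and the high-stretch values 30.3, 20.6 and 30.6 CPM. The third unstretched sample was the one that overlapped. With all samples the log2 fold change was 0.54 (SE 0.34), with edgeR's adjusted p at 0.584. Without that sample it was 1.00 and the adjusted p 0.0308, in a fit that called 7.77% of all genes.

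Tgfb3 was the most abundant ligand gene and moved the other way in experiment 1. Its unstretched samples had 120, 124 and 150 CPM, and the low-stretch samples ran from 97.5 to 121 CPM with a median of 107. A single stretched sample reached into the unstretched range. The difference on the log2 scale was -0.29 (SE 0.09) with edgeR's adjusted p at 0.0801, and 6 of 6 samples were lower within runs, at 0.737 to 0.973 times the unstretched sample (edgeR's adjusted p with the run block 0.00673). In experiment 2 it had 243, 247 and 183 CPM without stretch and 196, 221 and 241 CPM under high stretch. These values overlapped throughout, and the log2 difference was -0.01 (SE 0.18, edgeR's adjusted p 0.989).

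Inhba encodes the subunit that forms activin A, a ligand of the same superfamily that signals through activin receptors to Smad2 and Smad3. In experiment 1 the unstretched samples had 28.4, 30.3 and 20.2 CPM, and the low-stretch samples spread from 21.3 to 90.7 CPM around a median of 48.5. The 2 lowest stretched samples fell inside the unstretched range. They came from the run whose unstretched sample was lowest, and within runs 6 of 6 were higher, by 1.06 to 3.19 times. Over all samples the log2 fold change was 0.88 (SE 0.40) with edgeR's adjusted p at 0.212, and 0.73 (SE 0.20) at 0.0195 with the run block. In experiment 2 the level was lower, with 5.24, 3.73 and 7.38 CPM without stretch and 16.5, 9.99 and 16.0 CPM under high stretch. All 3 stretched samples lay above all 3 unstretched ones, which held for 20.6% of all genes in either direction. The log2 fold change was 1.39 (SE 0.32), or 2.63-fold, and edgeR's adjusted p of 0.0610 missed the threshold. It passed in 3 of 6 alternatives, among them the run as a block (7.12e-05, with 8.35% of all genes called) and DESeq2 (5.81% called), and also without the third unstretched sample (0.00629).

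Ltbp1, the gene of the protein that anchors latent TGF-beta in the matrix, had the largest log2 fold change of the members under high stretch. The unstretched samples of experiment 2 had 49.3, 64.1 and 104 CPM, and the high-stretch samples had 217, 171 and 280 CPM. The groups did not overlap, and the stretched sample had 2.67 to 4.39 times the value of the unstretched sample in its run. The log2 fold change was 1.63 (SE 0.32) with edgeR's adjusted p at 0.0362. Under low stretch, values of 137 to 229 CPM with a median of 145 stood above 77.4, 126 and 43.0 CPM without stretch, again with no overlap. There the log2 fold change was 1.02 (SE 0.31) with edgeR's adjusted p at 0.0812, and at 0.000406 with the run block. Within runs the low-stretch samples had 1.70 to 3.45 times the unstretched value, in a direction that the lack of overlap fixes. The unstretched samples of experiment 1 spanned a wide range. Without the second unstretched sample of experiment 1 the log2 fold change was 1.49 with edgeR's adjusted p at 0.0262, and without the third it was 0.71 at 0.261.

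The high-stretch call on Ltbp1 changed with the samples used. It passed in 2 of the 6 fits that left out 1 sample, those without the second high-stretch sample (edgeR's adjusted p 0.0480) and without the third unstretched sample (0.000813), and the highest adjusted p of the other 4 was 0.167. It passed in 6 of 6 other alternatives. In the 6 fits with 1 sample left out the log2 fold change stayed between 1.40 and 2.03.

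Of the 3 receptor genes, Tgfbr3 differed most between stretched and unstretched samples. Tgfbr1, the kinase that phosphorylates Smad2 and Smad3, had 32.0, 30.9 and 38.0 CPM without stretch and 33.2 to 44.4 CPM (median 38.8) under low stretch. The groups overlapped, with a log2 fold change of 0.21 and edgeR's adjusted p at 0.276, and 6 of 6 samples were higher within runs by 1.07 to 1.41 times. In experiment 2 Tgfbr1 had 6.14, 3.29 and 11.5 CPM without stretch and 7.26, 4.94 and 7.23 CPM with it. Here all stretched samples lay inside the unstretched range, with a log2 difference of -0.10 (SE 0.43, edgeR's adjusted p 0.969).

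Tgfbr2, the receptor that binds the ligand first, was the most abundant receptor gene. It had 233, 255 and 259 CPM without stretch in experiment 1 and 179 to 398 CPM (median 279) under low stretch, a range that enclosed the unstretched samples. It differed by 0.18 on the log2 scale with edgeR's adjusted p at 0.609, and 4 of 6 samples were higher within runs. In experiment 2 the high-stretch samples (341, 308 and 314 CPM) lay just above the unstretched ones (303, 264 and 288 CPM), with a log2 fold change of 0.19 and edgeR's adjusted p at 0.737.

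Tgfbr3 encodes betaglycan, the coreceptor that presents ligands, Tgfb2 above all, and that also binds inhibin. It was the member that was lower under both amplitudes with no overlap. In experiment 1 it had 72.8, 74.5 and 99.1 CPM without stretch and 52.4 to 71.7 CPM (median 58.6) under low stretch. The log2 fold change was -0.42 (SE 0.12) with edgeR's adjusted p at 0.0723, and at 0.00032 with the run block. Within runs the low-stretch samples had 0.703 to 0.805 times the unstretched value, in a direction that the lack of overlap fixes. In experiment 2 it had 51.7, 46.1 and 74.0 CPM without stretch and 42.8, 31.7 and 39.4 CPM under high stretch. There the log2 fold change was -0.58 (SE 0.24) with edgeR's adjusted p at 0.310. Within runs the high-stretch samples had 0.533 to 0.828 times the unstretched value, again in a direction that the lack of overlap fixes. Without the third unstretched sample the log2 fold change was -0.31, with edgeR's adjusted p at 0.372.

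Smad7 encodes the inhibitory Smad that TGF-beta signalling induces and that blocks the type I receptor in a feedback loop. Its unstretched samples in experiment 2 had 49.3, 52.2 and 60.5 CPM, and its high-stretch samples had 109, 101 and 99.0 CPM. Both groups were tight and far apart, with a log2 fold change of 0.95 (SE 0.17) and edgeR's adjusted p at 0.0253. The call passed in 6 of 6 other alternatives but in only 1 of the 6 fits with 1 sample left out, that without the third unstretched sample (0.00374), while the other 5 gave adjusted p-values from 0.0547 to 0.171. In experiment 1 the unstretched samples had 53.4, 64.6 and 36.7 CPM, and the low-stretch samples spread from 42.7 to 96.1 CPM with a median of 61.9. These groups overlapped, with a log2 fold change of 0.27 and edgeR's adjusted p at 0.539, and 5 of 6 samples were higher within runs.

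Tgfbi, the gene of a matrix protein named for its induction by TGF-beta, was at the edge of detection. It had 13 counts in all among the 4018707413 counts of the 15 samples, with 0 counts in 7 samples and at most 4 counts in 1. In those 7 samples a count of 0 allows a level of up to 0.0101 to 0.0113 CPM, taken as 3 counts per library and covering counting error only. The gene was removed by the filter on low counts and has no test.

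**Figure D2:**
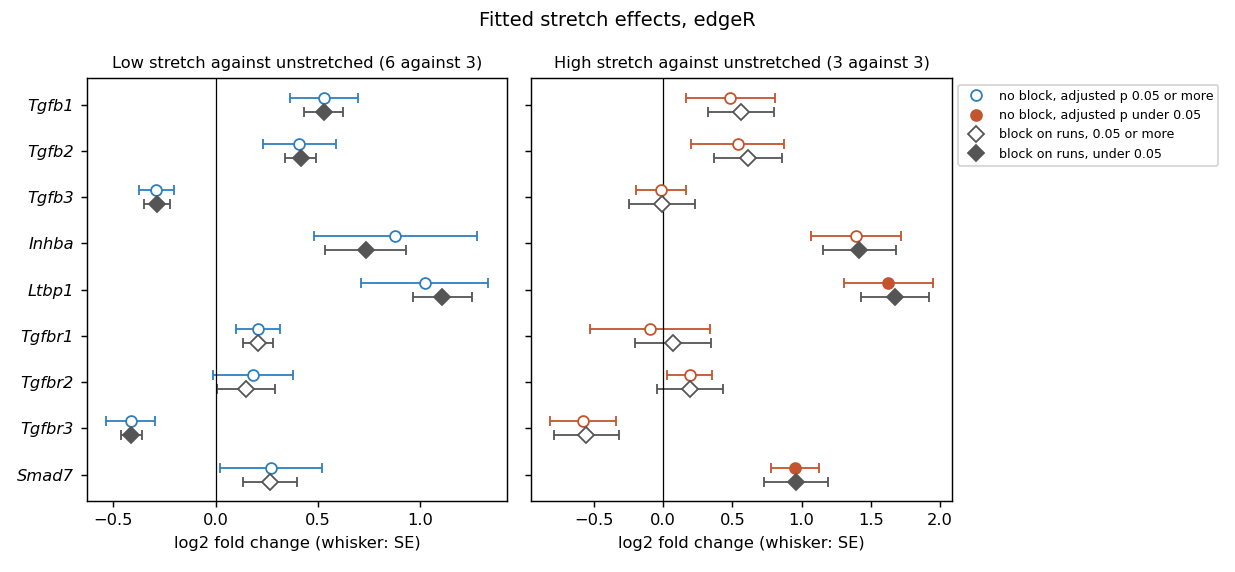
Log2 fold change of the 9 tested members, stretched over unstretched, with whiskers of 1 SE, without a block (circles) and with a block on runs (diamonds), filled where the adjusted p was under 0.05. Without a block, Ltbp1 (1.02 and 1.63) and Inhba (0.88 and 1.39) lie farthest to the right and Tgfbr3 (-0.42 and -0.58) farthest to the left, and the filled circles are Ltbp1 and Smad7 under high stretch.

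**Figure D3:**
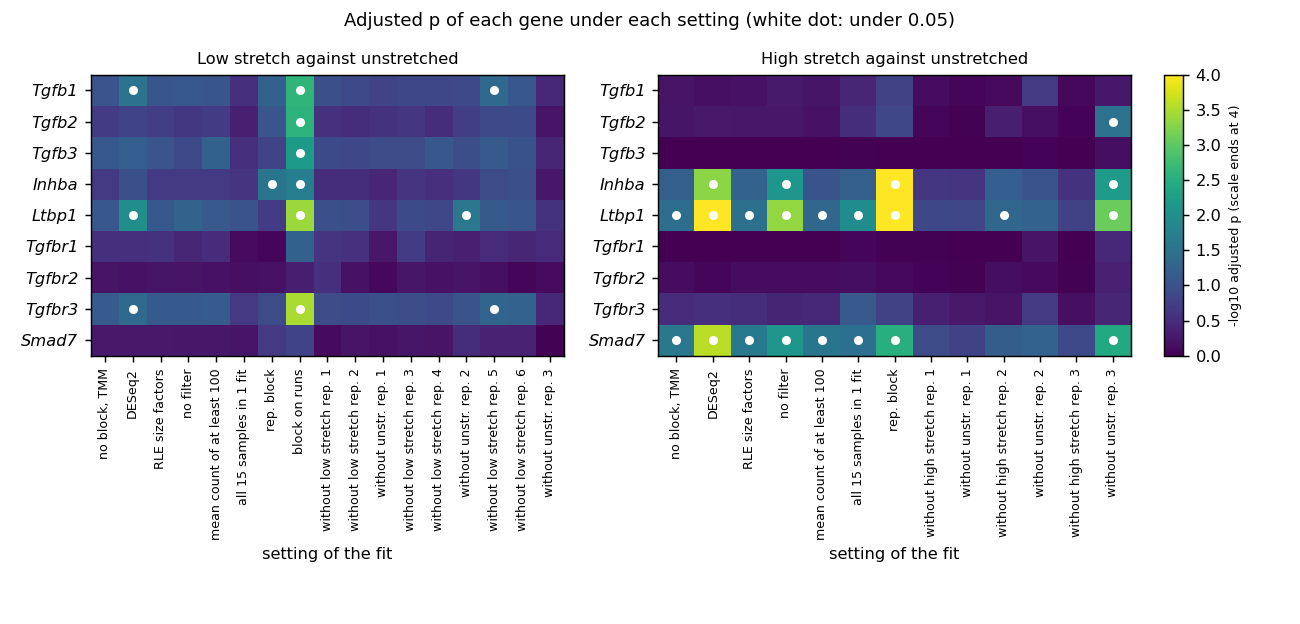
Adjusted p of each tested member in each fit, as colour on a -log10 scale that ends at 4, for low (left) and high stretch (right), with a white dot under 0.05. Under low stretch the run block gave adjusted p-values under 0.05 for 6 members, and under high stretch Ltbp1 and Smad7 passed in every fit with all samples, while the fits with 1 sample left out mostly missed the threshold.

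Counted by ranges, the low-stretch and unstretched groups did not overlap for 3 of the 9 members, Tgfb1 and Ltbp1 higher and Tgfbr3 lower, beside 15.3% of all genes. For high stretch the count was 5 of 9, Inhba, Ltbp1, Tgfbr2 and Smad7 higher and Tgfbr3 lower, beside the 20.6% of all genes given above.

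Whether a member's response differed between the experiments was tested as a contrast of both effects over all 15 samples. It passed for 0 of 9 members, and 0.0% of 22015 genes passed. At an unadjusted p under 0.05 the count was 0 of 9 beside 2.48% of all genes, and DESeq2 also called 0 members. With the run as a block the unadjusted count was 3 of 9 (Smad7 0.00747, Ltbp1 0.0429 and Inhba 0.0439 in edgeR), beside 6.42% of all genes, and 0 of 9 passed after adjustment. Without the block the lowest p was that of Smad7, where the high-stretch log2 fold change exceeded the low-stretch one by 0.65 (unadjusted p 0.0637, adjusted p 0.99976 in edgeR). The smaller response of Smad7 or Ltbp1 in experiment 1 was therefore not shown to be different from that in experiment 2.

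The unstretched samples themselves differed between the experiments. They also differed in depth, with 279096099 to 294648217 counts per sample in experiment 1 and 172211836 to 264475698 in experiment 2. Differences in cells, RNA and libraries between the experiments cannot be told apart here, and the part of each was not tested. Of the 9 members 5 passed, in a comparison where 62.5% of all genes did. Tgfb1 was higher in experiment 2 (log2 difference 1.47) and so was Tgfb3 (0.76), while Tgfb2 (-1.05), Inhba (-2.29) and Tgfbr1 (-2.29) were lower. Ltbp1, Tgfbr2, Tgfbr3 and Smad7 did not pass edgeR's threshold. The ranges did not overlap for 6 of 9 members, beside 72.9% of all genes, and the sixth was Tgfbr2, which was higher in experiment 2. The count of 5 became 3 without the first unstretched sample of experiment 1, in a fit that called 44.4% of all genes. There edgeR's adjusted p was 0.0684 for Tgfb2 and 0.0568 for Tgfb3. The count became 6 without the third unstretched sample of experiment 2, in a fit that called 73.0% of all genes.

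Levels of different genes can be set beside each other only per length, and for that TPM, which divides abundance by transcript length, was summed over each gene's transcripts. In unstretched samples of experiment 1 Tgfbr2 (97.9 ± 4.52 TPM, SD, n = 3) and Tgfb3 (87.1 ± 9.66) led, and their ranges overlapped. Smad7 (37.7 ± 10.6), Ltbp1 (35.8 ± 14.5) and Tgfbr3 (27.8 ± 4.88) followed, each with a range that met that of its neighbour. Tgfb1 (18.6 ± 2.90), Tgfb2 (18.0 ± 3.35), Tgfbr1 (13.4 ± 1.72) and Inhba (11.3 ± 2.54) formed the low end, again with each neighbour overlapping. Under low stretch Ltbp1 reached 60.1 ± 10.5 TPM (n = 6) and overlapped Tgfb3 at 66.1 ± 5.85 TPM. In this group every neighbour in the order overlapped the next.

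In unstretched samples of experiment 2 the order ran from Tgfb3 (98.3 ± 5.68 TPM, SD, n = 3) and Tgfbr2 (78.9 ± 18.4) through Tgfb1 (31.8 ± 7.76), Smad7 (27.6 ± 8.48), Ltbp1 (19.8 ± 12.5), Tgfbr3 (13.8 ± 6.58) and Tgfb2 (7.24 ± 3.93) to Inhba and Tgfbr1, at 2.07 ± 0.842 and 2.06 ± 1.61 TPM. Only 2 neighbours were apart beyond their ranges, Tgfbr2 above Tgfb1 and Tgfb2 above Inhba. Under high stretch Smad7 (52.8 ± 9.45 TPM) and Ltbp1 (51.6 ± 14.3) stood next below Tgfbr2 (80.8 ± 12.9), above Tgfb1 (42.9 ± 3.61). Inhba (4.77 ± 1.49) was above Tgfbr1 (1.59 ± 0.461) with no overlap. The ligand genes thus kept Tgfb3 as the most abundant of the 4 in all groups, while the type II receptor gene exceeded the type I receptor gene in each group mean.

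The study asked about splicing, so the balance of the members' transcripts was tested with limma, as the log2 of a transcript's TPM over the TPM of all other transcripts of its gene. Under low stretch 0 of 18 member transcripts passed, and 4 of 27672 transcripts (0.0145%) passed over all genes. Under high stretch 0 of 17 passed and 0 of 23374 (0.0%) over all genes. At an unadjusted p under 0.05 the members' counts were 3 of 18, where 2781 of 27672 transcripts reached it, and 2 of 17, where 1906 of 23374 did. The transcript of Ltbp1 with the lowest p, Ltbp1-201, took 24.7% ± 1.89 of the gene's TPM without stretch and 28.7% ± 1.33 under low stretch (SD, n = 3 and 6), with a log2 ratio higher by 0.29 and limma's adjusted p at 0.359. Ltbp1-207, a transcript annotated without a coding sequence and named here after its values were seen, went the other way. It took 21.9% ± 9.71 without stretch and 11.0% ± 2.65 under low stretch (log2 ratio -1.13, limma's adjusted p 0.362), and 10.2% ± 0.852 and 6.71% ± 1.12 in experiment 2 (-0.71, limma's adjusted p 0.507). Its unadjusted p was 0.00968 and 0.0167. For Smad7 it was Smad7-204, with 41.3% ± 1.15 without stretch and 48.5% ± 0.935 under high stretch (n = 3 each), a log2 ratio higher by 0.42 and limma's adjusted p at 0.410. For Tgfbr1 it was Tgfbr1-203, at 12.1% ± 2.00 and 8.17% ± 2.41 in experiment 1 (log2 ratio -0.63, limma's adjusted p 0.477). For Tgfb2 it was Tgfb2-203, a transcript annotated without a coding sequence, at 7.48% ± 1.97 and 5.33% ± 1.10 (log2 ratio -0.50, limma's adjusted p 0.514).

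The Ltbp1 windows printed above belong to its 2 starts. Coding transcripts Ltbp1-210 and Ltbp1-201 begin at the upstream start and Ltbp1-205, Ltbp1-203 and Ltbp1-202 at the downstream one. The upstream start gave 32.2% ± 2.77 of coding TPM without stretch and 32.7% ± 2.07 under low stretch in experiment 1, and 39.1% ± 3.39 and 38.0% ± 0.840 in experiment 2 (SD). The stretched and unstretched ranges overlapped in both experiments. Over all transcripts, with Ltbp1-207 and another noncoding transcript counted at the upstream start, the share was 47.1% ± 8.41 and 40.1% ± 3.36 in experiment 1 and 45.4% ± 3.19 and 42.2% ± 1.34 in experiment 2, without and with stretch, and the ranges overlapped again. This second share was added after the data were seen.

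**Figure D4:**
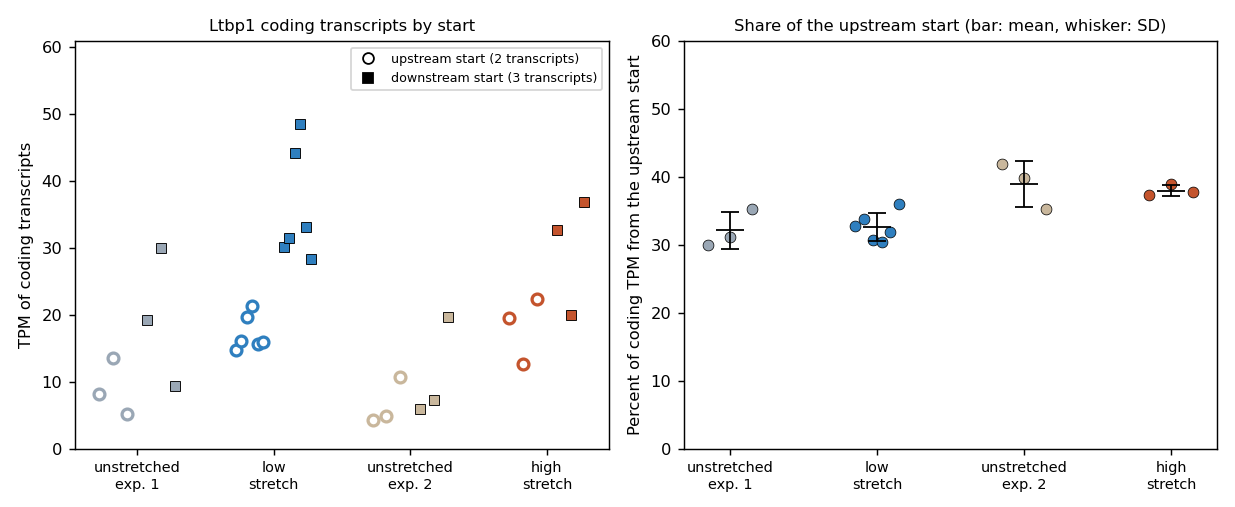
Left, TPM of the Ltbp1 coding transcripts from the upstream (open circles) and downstream start (squares) in each sample. Right, the upstream share of coding TPM in percent, with bars at the mean and whiskers of 1 SD. The share lies between 30.0 and 36.0% in experiment 1 and between 35.3 and 42.0% in experiment 2, with stretched and unstretched samples overlapping.

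Around the members, 91 other genes of the pathway were followed in 5 lists, of which 83 passed the filter on low counts in each stretch comparison. Under low stretch 9 passed the test, 6 higher and 3 lower, beside the 5.45% given for all genes. Under high stretch 10 passed, 8 higher and 2 lower, beside 3.47%. The genes called under both amplitudes were Acvr1, Pmepa1, Fn1 and Timp1, which were higher, and Itgb6 and Postn, which were lower.

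The list of TGF-beta target genes held the most calls under high stretch. There 5 of 20 rose, 1 fell and 14 did not pass, with a median log2 fold change of 0.83. Under low stretch 2 rose, 1 fell and 17 did not pass, with a median of 0.52. Over all genes 3.47% were called under high and 5.45% under low stretch, with medians of -0.02 and 0.01. This list, like the others, was chosen with earlier results of these data known. Ccn2, a matricellular protein gene that YAP also drives, had 1691, 1407 and 1558 CPM under high stretch and 239, 417 and 429 CPM without (log2 fold change 2.12, edgeR's adjusted p 0.00877). Fn1, the fibronectin gene, had 9771, 8915 and 11247 CPM against 3278, 3852 and 3306 CPM (1.54, edgeR's adjusted p 0.00844). In both genes the stretched samples stood clear of the unstretched ones.

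Fn1 passed under low stretch too, with a log2 fold change of 0.95 (edgeR's adjusted p 0.0132), and Timp1, a metalloproteinase inhibitor gene, rose by 0.81 (0.0398). Postn, the periostin gene of the matrix, fell in both experiments, by 1.61 on the log2 scale under low stretch (edgeR's adjusted p 0.0357) and by 2.08 under high stretch (0.0456). Postn thus went against the direction of the list. Timp1 was also called under high stretch (1.21, edgeR's adjusted p 0.0441). So was Bhlhe40, a transcription factor gene (1.06, edgeR's adjusted p 0.0228), which is named here after its values were seen.

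Of the 21 Smad genes and Smad regulators, 1 rose under each amplitude and 20 did not pass. Over all genes 5.45% were called under low and 3.47% under high stretch. The gene that rose was Pmepa1, which encodes a membrane protein that binds Smad2 and Smad3 and limits the signal. It had 21.1 ± 5.74 CPM without stretch and 59.5 ± 24.3 under low stretch (SD, n = 3 and 6; log2 fold change 1.49, edgeR's adjusted p 0.0293). Under high stretch it had 144 ± 10.2 CPM against 37.5 ± 11.7 (n = 3 each; 1.97, edgeR's adjusted p 0.00824).

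Of the 19 genes of latency, activation and activin control, 1 rose and 2 fell under low stretch and 1 fell under high stretch. Beside these counts, 5.45% of all genes were called under low and 3.47% under high stretch. Lrrc32, whose protein GARP tethers latent TGF-beta to the cell surface, rose from 0.187 ± 0.0777 to 0.697 ± 0.297 CPM under low stretch (log2 fold change 1.89, edgeR's adjusted p 0.0251). Thbs1, the gene of thrombospondin 1, an activator of latent TGF-beta, had 2254 ± 28.9 CPM without stretch and 1474 ± 248 with it (-0.62, edgeR's adjusted p 0.0253). Itgb6, the beta subunit of an integrin that frees TGF-beta, fell from 0.339 ± 0.0840 to 0.132 ± 0.0218 CPM under low stretch (-1.36, edgeR's adjusted p 0.00754) and from 0.309 ± 0.138 to 0.0374 ± 0.0288 CPM under high stretch (-2.93, edgeR's adjusted p 0.0441). Lrrc32 and Itgb6 were both scarce, unlike Ltbp1 and Thbs1. The 3 high-stretch samples had 0.0405, 0.00709 and 0.0645 CPM of Itgb6, where 0.00709 CPM is 1 count. With 1 sample left out, its high-stretch call passed in 2 of 6 fits and its low-stretch call in 9 of 9.

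Among the 15 other receptors and coreceptors, 13 of which could be tested, 1 rose under low and 2 under high stretch. The shares called over all genes were 5.45% under low and 3.47% under high stretch. Acvr1, a type I receptor of BMPs and activins, rose by 0.57 on the log2 scale under low stretch (edgeR's adjusted p 0.0491) and by 0.76 under high stretch (0.0445). Acvrl1, the type I receptor ALK1 best known from endothelium, had 1.17, 1.65 and 1.42 CPM under high stretch and 0.103, 0.444 and 0.0983 CPM without (2.78, edgeR's adjusted p 0.0427). Beside it, of the 8 endothelial markers, Ehd3 was lower under high stretch, as given above, and the other 7 stayed at or under 0.189 CPM in all samples, with group means of 0.041 and 0.0829 CPM for Pecam1 and of 0.0473 and 0.0849 CPM for Vwf, without and with high stretch. Their part in the Acvrl1 result was not tested. Among the 16 BMP and GDF ligands and antagonists, 10 could be tested and 1 passed, Bmp1, a protease gene (0.62 under low stretch, edgeR's adjusted p 0.0374). These calls depended on the samples: the low-stretch count over the 5 lists ran from 1 (without the third unstretched sample of experiment 1) to 11 (without the fifth low-stretch sample), in fits that called 0.998% and 7.57% of all genes, and the high-stretch count from 0 (without the first or the third high-stretch sample) to 24 (without the third unstretched sample of experiment 2), in fits that called 0.488%, 0.0755% and 7.77%.

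**Figure D5:**
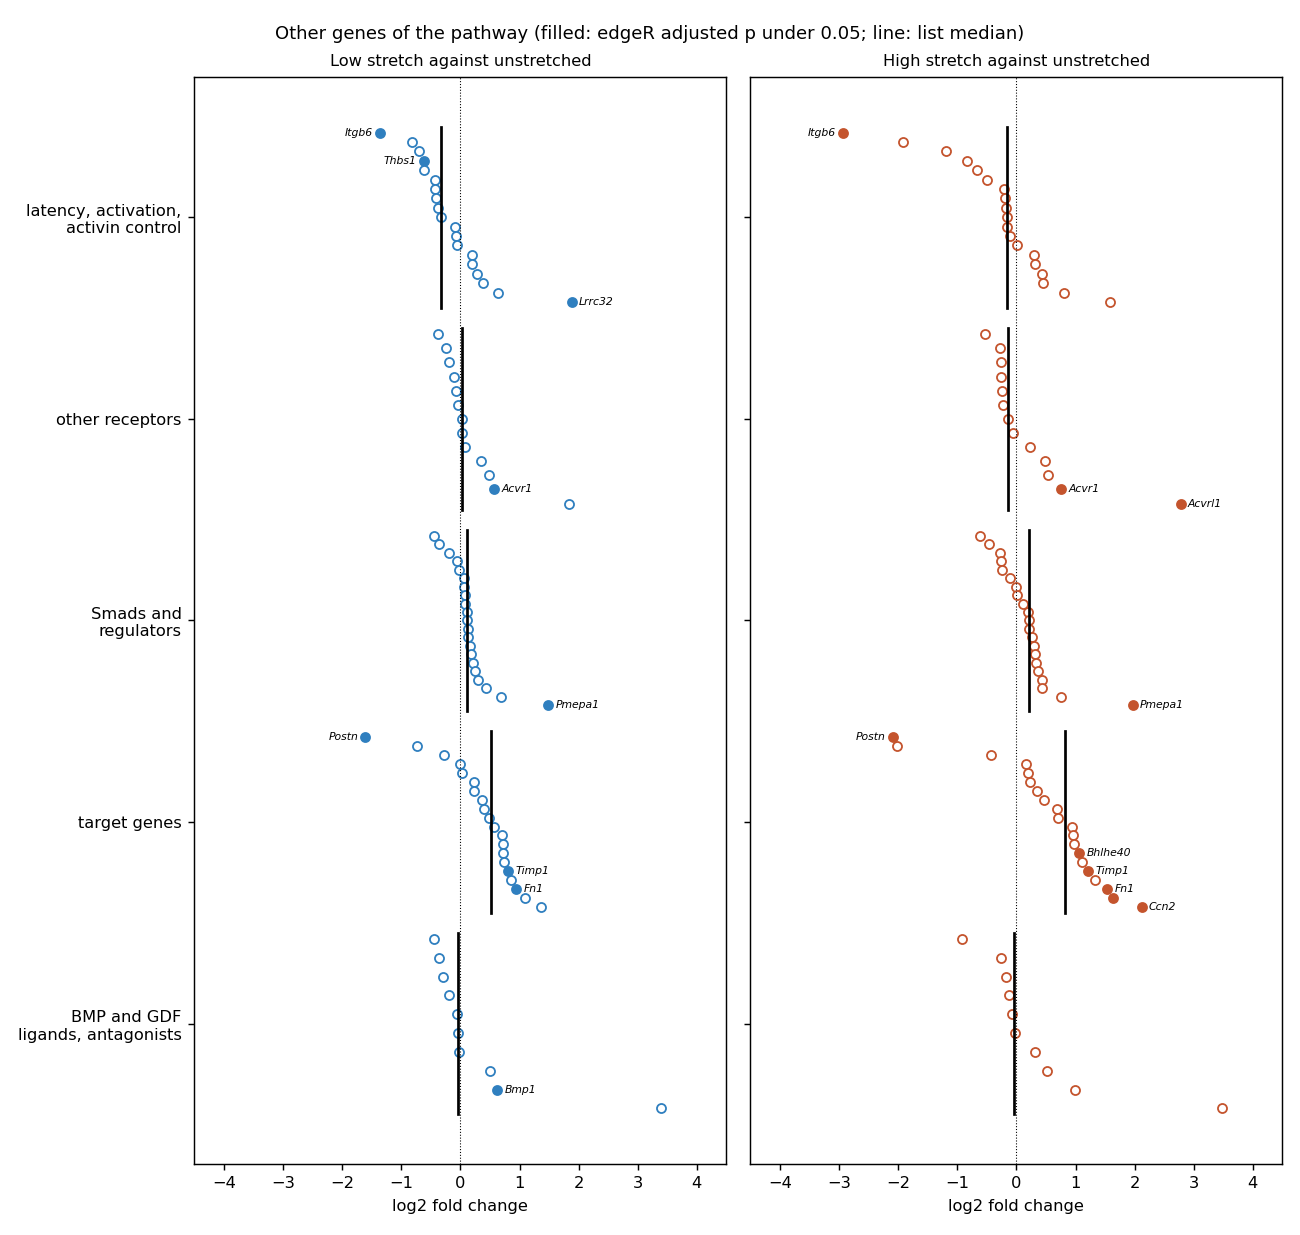
Log2 fold change of each of the 83 tested pathway genes in the 5 lists, under low stretch on the left and high stretch on the right, with genes past the adjusted threshold filled, the named ones labelled, and a line at each list's median. The target genes have the highest median in both panels, 0.52 and 0.83, and the other medians lie between -0.32 and 0.21.

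For the 3 members with the lowest p in a stretch comparison, the genes most like them were taken over all 15 samples from 9605 genes with a mean of at least 10 CPM, by Pearson's r of log2 CPM after each experiment's mean was subtracted. The r is a description, since the samples share the stretch groups, the runs and the library depth. Smad7 was most like Fgd3 (0.95), Pcsk5 (0.94) and Cnnm4 (0.94). Ltbp1 was most like Myc (0.98), Dkk3 (0.97) and Ubash3b (0.96), and Inhba was most like Ankrd50 (0.97), Sh3kbp1 (0.97) and Lrrfip1 (0.96).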

How the data were processed

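Poly(A) RNA of 15 samples was sequenced as stranded paired-end libraries, per the labels' protocols. The authors deposited raw counts for 55416 genes and TPM for 140789 transcripts, and the submitters' processing notes name STAR 2.7.5c, featureCounts, Subread 2.0.0, Salmon 1.9.0, DESeq2 1.38.3 and the build mm39. The strand setting is not given in the sources used here. A separate list of gene names gave symbols for 52083 genes. GENCODE M21 gave gene types and transcript names (52135 genes and 137189 transcripts matched). Genes with no match held 0.181% of the counts of a sample or less.

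Counts were tested with edgeR 4.0.16 (R 4.3.3): TMM, filterByExpr, quasi-likelihood F test, Benjamini-Hochberg over all genes tested, 0.05. The standard error is the log2 fold change over the square root of F. CPM used TMM factors over all samples. Usage was tested with limma 3.58.1 (pseudocount 0.1 TPM, gene mean at least 1 TPM, mean fraction 0.05 to 0.95). Alternatives were DESeq2 1.42.0, RLE size factors, no filter, a floor of 100 on the mean count and 1 fit over all samples. Others were blocks on replicate number or run, and each sample left out. The block on replicate number left out low-stretch samples 4 to 6, which have no unstretched sample of the same number.

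The members and lists were chosen with earlier results of these data known. All 10 members are named, and of the lists at most the 4 largest changes past the threshold per list and comparison. Some single genes of the lists are not reported here. Both tests were run on simulated data in which 200 genes or transcripts were given a log2 change of 2. For low stretch edgeR recovered 90.5% among 21376 genes, and for high stretch 81% among 18233. It recovered 81.5% among 20275 for the unstretched groups and 67.5% among 21510 for the contrast of effects. For usage, limma recovered 88% and 56.5% of 200 changed transcripts among 27669 and 23374. False calls in the same order were 8, 9, 6 and 10 in edgeR and 10 and 3 in limma. Stretch effects of the members reached 1.63 on the log2 scale at most, so recovery of changes of their size was not measured.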

Additional observations from a re-analysis of the deposited data

How the results depend on the processing

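Replicate numbers did not meet the rule for pairing, a correlation over 0.1 in every pair: in experiment 1 same-numbered samples correlated at 0.365, -0.139 and -0.44, and in experiment 2 at -0.163, 0.45 and 0.241, and 2 of the 6 unstretched samples correlated best with their own number. In experiment 2 number and run are the same grouping, so the blocks are 1 fit there. The replicate block used only samples numbered 1 to 3, so it left out low-stretch samples 4 to 6. With it, 1 member passed under low stretch (Inhba) and 3 under high stretch (Ltbp1, Smad7 and Inhba). The other pathway genes called were 7 and 23, in fits that called 2.3% and 8.35% of all genes. The run block called 6 and 3 members and 41 and 23 other pathway genes (28.2% and 8.35% of all genes). DESeq2 called 3 members under low stretch and 3 under high stretch, and 22 and 19 other pathway genes (11.4% and 5.81%). Under high stretch the pathway count was 16 with no filter (3.21%) and 18 with all 15 samples in 1 fit (6.76%).

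With 1 sample left out the members called ran from 0 to 2 under low stretch, 0 to 4 under high stretch, 0 for the contrast of effects and 3 to 6 between the unstretched groups. In the same order, these fits called 0.998% to 7.57%, 0.0755% to 7.77%, 0.0% and 44.1% to 73.0% of all genes. The pathway counts ran from 1 to 11 and 0 to 24. Usage tests called 0 member transcripts in every alternative run, and with protein-coding transcripts only every group mean per length moved by less than 1 SD, for example from 35.8 to 28.5 TPM for Ltbp1 in unstretched samples of experiment 1.

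Directions that reversed belonged to differences under the threshold. Under low stretch Tgfbr2 was -0.13 with the replicate block, which left out low-stretch samples 4, 5 and 6. These had 283, 327 and 398 CPM of Tgfbr2, against 179, 275 and 241 CPM in low-stretch samples 1, 2 and 3. Under high stretch Tgfb3 was 0.02 with no filter and -0.11 to 0.07 with 1 sample left out, and Tgfbr1 was 0.07 with either block and -0.42 to 0.51 with 1 sample left out. In the contrast, Tgfb1 was 0.01 with the run block, Tgfbr1 0.0 with the replicate block, and Tgfbr2 0.01 at a mean count of at least 100, 0.30 with the replicate block and 0.02 with the run block. With 1 sample left out the contrast ran from -0.30 to 0.26 for Tgfb1, -0.12 to 0.60 for Tgfb2, -0.66 to 0.31 for Tgfbr1, -0.12 to 0.10 for Tgfbr2 and -0.34 to 0.11 for Tgfbr3. Between the unstretched groups Smad7 was -0.08 at a mean count of at least 100, and with 1 sample left out Ltbp1 ran from -0.61 to 0.26 and Smad7 from -0.15 to 0.25. The cause was not tested. With 3 samples a group, leaving out 1 sample ended the high-stretch call on Ltbp1 in 4 of 6 fits and that on Smad7 in 5 of 6.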

Other observations

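Gremlin 1, encoded by Grem1, is a BMP antagonist known from kidney fibrosis. It was singled out here after its values were seen, because its fitted log2 fold changes were the largest of the pathway lists, 3.39 under low and 3.48 under high stretch, while edgeR's adjusted p was 0.102 and 0.0638. Its levels were very low: 0.323, 0.116, 0.148, 0.169, 0.0209 and 0.0094 CPM in the 6 low-stretch samples, against 0.0266, 0.00906 and 0 CPM without stretch. In experiment 2 it had 0.0931, 0.0567 and 0.113 CPM under high stretch and 0.00644, 0.0222 and 0 CPM without. With the run as a block edgeR's adjusted p was 0.00109 and 0.000846.

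Fst, which encodes the activin antagonist follistatin, was also chosen after its values were seen. It was abundant, at 291, 295 and 146 CPM without stretch in experiment 1 and 313 to 538 CPM under low stretch, with no overlap. The log2 fold change was 0.64 (SE 0.24) with edgeR's adjusted p at 0.137, and 0.68 at 0.00573 with the run block. Under high stretch it was 0.45 at an adjusted p of 0.504 in edgeR.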
